A study of Homo sapiens with 9 samples.

Results

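Chromosomes 4, 13 and 18 carry the fewest protein-coding genes per Mb of the 22 human autosomes, and the sites described here are all EGR1 peaks listed on them. There were 2060 such peaks among 28625 in all. Of these, 907 of 12340 came from cells induced with doxycycline and given clobetasol, and 1153 of 16285 came from cells induced with doxycycline alone. The members were taken by chromosome alone, with no selection on a measured value.

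EGR1 is a zinc finger transcription factor that is switched on within minutes to hours of growth factor or RAS-RAF-MEK-ERK signalling. It binds GC-rich DNA, which is most frequent at promoters and in gene-rich regions, and its targets include feedback regulators of the same pathway. Sustained signalling from BRAF V600E brings such cells to a durable growth arrest known as senescence. Clobetasol is a synthetic glucocorticoid that activates the glucocorticoid receptor.

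The cells were BJ-hTert-B-RAF-V600E, human fibroblasts immortalised with telomerase that carry an inducible BRAF V600E oncoprotein, and chromatin was precipitated with an antibody to EGR1. Of the 9 libraries, 3 came from cells given 1000 ng/mL doxycycline and 2 nM clobetasol for 24 h, 3 from cells given 1000 ng/mL doxycycline and DMSO for 24 h, and 3 from proliferating cells given ethanol in place of doxycycline and DMSO for 24 h. The titles name DMSO for the clobetasol libraries too, while their source labels do not, and whether a group's 3 libraries were separate cultures is not stated. Peaks were called on the 3 libraries of a group together, with the pooled EGR1 libraries of proliferating cells as the control, so every value below is 1 pool against 1 pool with no spread between replicates. Both lists share that control: each holds sites where EGR1 signal exceeded proliferating cells, and the overlap of the lists is given as a description only, as a share of each. Folds and q values of peaks are the authors', positions are in hg19 and count from 1, and fragments are the whole DNA fragments over a peak's summit, solved from the authors' fold and p.

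EGR1 peaks were sparse on all 3 chromosomes. Chromosome 4 held 458 clobetasol and 584 induced peaks, or 2.40 and 3.06 per Mb. Chromosome 13 held 247 clobetasol and 305 induced peaks, or 2.14 and 2.65 per Mb. Chromosome 18 held 202 clobetasol and 264 induced peaks, or 2.59 and 3.38 per Mb. The other 19 autosomes together held 4.41 clobetasol and 5.85 induced peaks per Mb, and the 3 lowest densities of the 22 autosomes were these 3 in both lists. Much of the short arm of chromosome 13 is not sequenced in this build and held no peak. Counted over the length from the first to the last peak, chromosome 13 held 2.60 clobetasol and 3.21 induced peaks per Mb, chromosome 18 held 2.60 and 3.39, and the other autosomes 4.57 and 6.04.

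**Figure D1:**
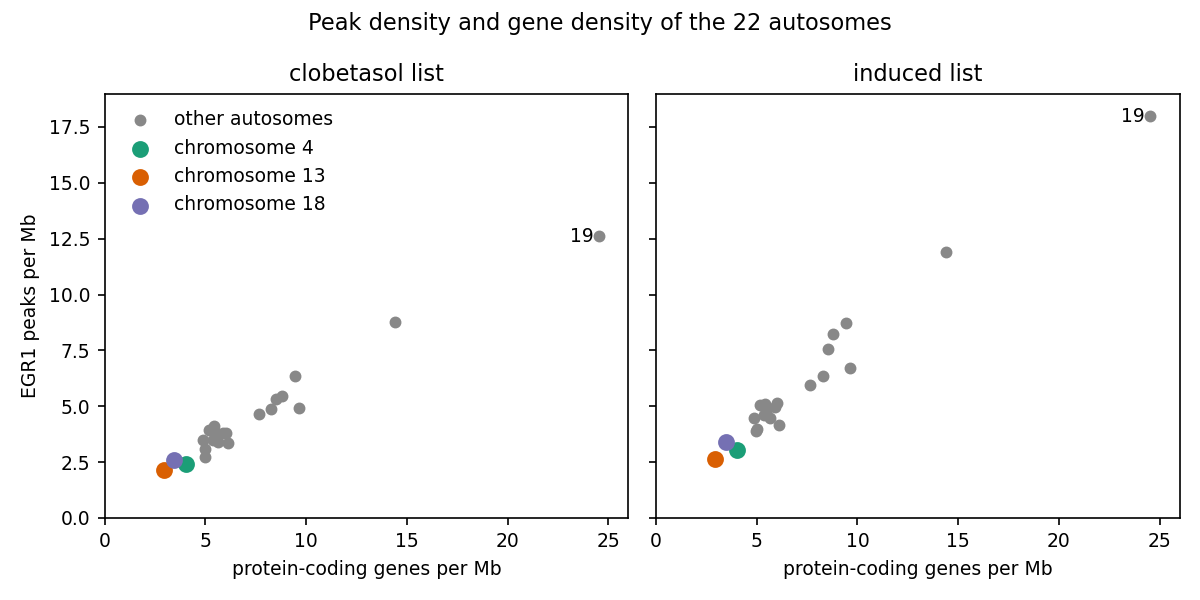
EGR1 peaks per Mb (vertical axis) against protein-coding genes per Mb (horizontal axis) for the 22 autosomes, 1 point per chromosome, in the clobetasol list (left) and the induced list (right). Chromosomes 4, 13 and 18 lie at the lower left of both panels, and chromosome 19 at the upper right.

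Genes were sparse on them too. The RefSeq table, which is of another build (GRCh38) and was used for counts only, lists 770 protein-coding genes on chromosome 4, 338 on chromosome 13 and 270 on chromosome 18. Over hg19 lengths that is 4.03, 2.93 and 3.46 genes per Mb, against 7.11 on the other autosomes. Per 100 genes, the clobetasol list held 59.5 peaks on chromosome 4, 73.1 on chromosome 13 and 74.8 on chromosome 18, against 62.1 on the other autosomes. The induced list held 75.8, 90.2 and 97.8, against 82.2. Peaks per gene on chromosomes 13 and 18 were therefore above those of the other autosomes and on chromosome 4 below them. Over the 3 chromosomes together, peaks per Mb were 53.5% of those of the other autosomes in the clobetasol list and 51.3% in the induced list, and genes per Mb were 50.4%.

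The peaks themselves were of ordinary size. The median fold over proliferating cells in the clobetasol list was 3.13 on chromosome 4, 3.19 on chromosome 13 and 3.13 on chromosome 18, against 3.16 on the other autosomes. In the induced list the medians were 3.57, 3.64 and 3.56, against 3.65. Ranked from the lowest of the 22 autosomes, the clobetasol medians of chromosomes 4, 13 and 18 stood at 3, 17 and 4. The induced medians stood at 2, 13 and 1. The median summit held 75, 76 and 71 fragments in the clobetasol pool, against 75 on the other autosomes, and 67, 66 and 61.5 in the induced pool, against 64. Folds over 5 were reached by 25 of 907 clobetasol peaks (2.76%) and by 141 of 1153 induced peaks (12.2%), against 3.80% and 13.1% on the other autosomes. The median width was 328 bp for clobetasol peaks and 396 bp for induced peaks, against 340 and 425 bp. The lowest median widths of the 22 autosomes were 319 bp on chromosome 18 (clobetasol list) and 392 bp on chromosome 13 (induced list).

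The numbers that the peak caller gave in sequence along the genome run higher than the peaks listed. The listed peaks account for 30.9% of the numbers on chromosome 4, 34.0% on chromosome 13 and 37.5% on chromosome 18 in the clobetasol list, against 47.5% on the other autosomes. In the induced list they account for 22.9%, 22.5% and 25.7%, against 31.5%. In both lists these were the 3 lowest shares of the 22 autosomes. The numbers spanned came to 7.15 per Mb on the 3 chromosomes in the clobetasol list, against 9.29 on the other autosomes, and to 12.8 in the induced list, against 18.6. No source used here records what the unlisted numbers were, and every density given above is that of the listed peaks.

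Many of the peaks with the most fragments lay where proliferating cells also had a high EGR1 signal. The term repeat-like is used below for a peak whose control level exceeded the list's lowest by more than 5 times. It rests on no repeat annotation, and a site strongly bound in proliferating cells can carry it too. In the clobetasol list 24.5% of peaks on chromosome 4, 22.7% on chromosome 13 and 17.8% on chromosome 18 were repeat-like, against 21.6% on the other autosomes. In the induced list the shares were 21.9%, 16.7% and 15.2%, against 17.4%. Without them the density was still 1.81 clobetasol and 2.39 induced peaks per Mb on chromosome 4, 1.66 and 2.21 on chromosome 13, and 2.13 and 2.87 on chromosome 18, against 3.46 and 4.83 on the other autosomes.

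On chromosome 4 the peaks gathered near the tip of the short arm. The 1 Mb window at 1000001 to 2000000 held 19 clobetasol and 23 induced peaks, the window at 2000001 to 3000000 held 13 and 20, and that at 6000001 to 7000000 held 10 and 17. A run is 3 or more peaks whose consecutive summits lie at most 50 kb apart. The run at chr4:1124368-1404567 held 11 induced peaks with folds of 2.63 to 7.50, of which 9 overlapped a clobetasol peak. Its outermost peak, at chr4:1404113-1404567, had 58 fragments in the clobetasol pool (47.7 once scaled to the depth of the induced pool) and 81 in the induced pool, against 18 in the proliferating pool. The run at chr4:6641997-6785528 held 10 induced peaks with folds of 3.27 to 5.90, of which 7 overlapped a clobetasol peak.

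Away from the tip, the window at 77000001 to 78000000 held 14 clobetasol and 12 induced peaks, all 12 of which overlapped a clobetasol peak. It was the third of the chromosome by clobetasol peaks, ahead of the one at 2000001 to 3000000. Its largest clobetasol run, at chr4:77069547-77135233, held 6 peaks with folds of 2.71 to 3.90, and 4 induced peaks lay there. The window at 83000001 to 84000000 held 11 clobetasol and 12 induced peaks, and that at 54000001 to 55000000 held 11 and 7.

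A gathering of low folds lay next to the centromere of chromosome 4. The window at 49000001 to 50000000 held 18 clobetasol and 22 induced peaks, and every one was repeat-like. Folds there were 1.22 to 1.68 in the clobetasol list and 1.26 to 1.69 in the induced list, on 288 to 3483 and 276 to 3216 fragments. The control level of proliferating cells reached 361 times the lowest of the clobetasol list and 367 times the lowest of the induced list. The run at chr4:49093451-49152021, with 17 induced peaks of which 10 overlapped a clobetasol peak, was the run with the most peaks on the 3 chromosomes. These peaks combined small folds with high fragment counts, while the peaks near the tip had larger folds on far fewer fragments.

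On chromosome 13 the peaks gathered at the end of the long arm. The window at 114000001 to 115000000 held 15 clobetasol and 25 induced peaks, the most induced peaks of any window on the 3 chromosomes. By clobetasol peaks the fullest window was that of chromosome 4 at 1000001 to 2000000, with 19. The chromosome 13 window at 114000001 to 115000000 holds the run at chr13:114766654-114943316. That run had 14 induced peaks and no repeat-like one, with folds of 2.77 to 6.94 on 25 to 133 fragments. Of those 14, 7 overlapped a clobetasol peak. The window at 111000001 to 112000000 held 13 clobetasol and 17 induced peaks, with a run of 5 induced peaks at chr13:111032923-111097957 that all overlapped a clobetasol peak. The windows at 24000001 to 25000000 and 80000001 to 81000000 each held 13 induced peaks, with 9 and 10 clobetasol peaks. The window at 45000001 to 46000000 was the third by clobetasol peaks, with 11, and held 9 induced peaks.

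On chromosome 18 the fullest windows held fewer peaks. The window at 46000001 to 47000000 held 10 clobetasol and 15 induced peaks, that at 12000001 to 13000000 held 9 and 15, and that at 9000001 to 10000000 held 8 and 14. The windows at 21000001 to 22000000 and 33000001 to 34000000 each held 9 clobetasol peaks, with 9 and 8 induced peaks. The run at chr18:46423150-46524765 held 9 induced peaks, of which 4 overlapped a clobetasol peak. A run of 6 induced peaks at chr18:74159517-74208301, with folds of 2.93 to 5.61, had 3 that overlapped a clobetasol peak. A second run of 6, at chr18:18511105-18520302, resembled the pericentromeric sites of chromosome 4: all 6 peaks were repeat-like, with folds of 1.32 to 1.62 on 418 to 2502 fragments. It is the first group of peaks beyond the centromere.

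Close spacing was less common than on the other autosomes as a whole. Runs took in 21.6% of clobetasol peaks and 27.2% of induced peaks on the 3 chromosomes, against 37.7% and 49.2% on the other autosomes. Among single autosomes, chromosomes 3 and 6 had 21.9% and 22.1% of clobetasol peaks in runs, below the 24.5% of chromosome 4. The median distance between neighbouring summits was 125 kb on chromosome 4, 123 kb on chromosome 13 and 144 kb on chromosome 18 in the clobetasol list, against 72.7 kb. In the induced list it was 103, 96.0 and 102 kb, against 50.6 kb. A neighbour within 10 kb was found for 28.4% of clobetasol peaks on chromosome 4, 22.7% on chromosome 13 and 19.3% on chromosome 18, against 29.8%, and for 28.4%, 31.1% and 28.0% of induced peaks, against 35.4%. The clobetasol value of chromosome 4 was above those of chromosomes 2, 3, 5, 6, 7, 8, 14, 15, 20 and 21. The induced value of chromosome 13 was above those of chromosomes 2, 5, 8, 14 and 15, and that of chromosome 4 was above that of chromosome 15. The outer 5 Mb at both ends of each chromosome held 12.4% of clobetasol and 14.7% of induced peaks on chromosome 4, on 5.23% of its length. For chromosome 13 the shares were 18.6% and 20.3% on 8.68% of the length, and for chromosome 18 they were 17.3% and 17.0% on 12.8%. On the other autosomes the outer 5 Mb held 14.0% and 15.1% of peaks on 7.61% of the length. The length of chromosome 13 counts its unsequenced short arm.

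**Figure D2:**
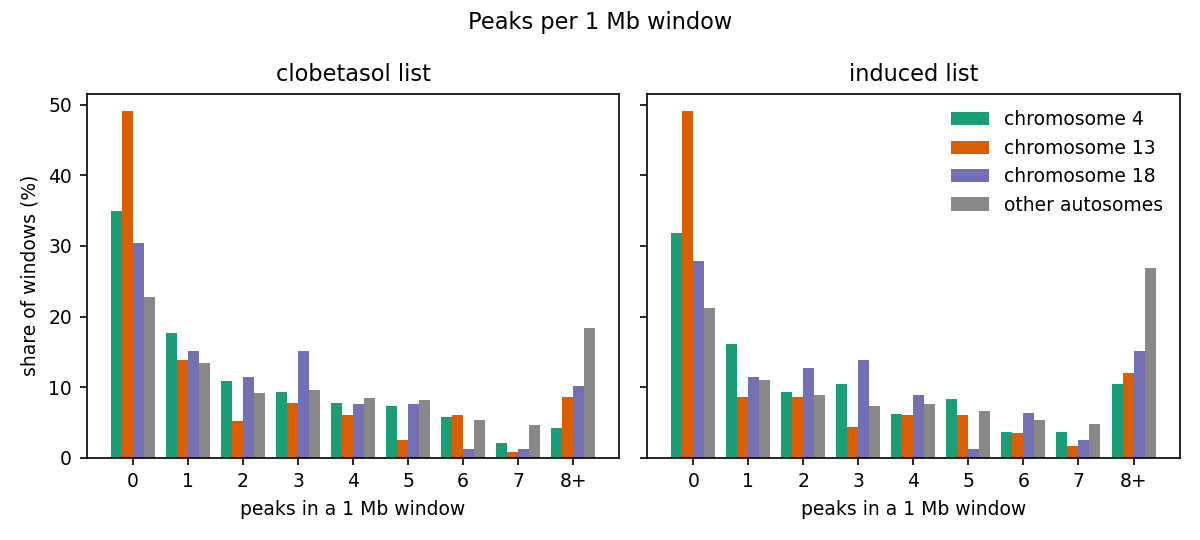
Share of 1 Mb windows (vertical axis, %) by the number of peak summits in the window (horizontal axis, with 8 or more in the last bar), in the clobetasol list (left) and the induced list (right), with 1 bar colour per chromosome and grey for the other autosomes. Empty windows are the tallest bars for all 3 chromosomes, and windows with 8 or more peaks are fewer on them than on the other autosomes; the bar of chromosome 13 at 0 includes its unsequenced short arm.

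Windows without any peak were common. Between the first and last peak, 34.9% of 1 Mb windows on chromosome 4, 39.4% on chromosome 13 and 30.3% on chromosome 18 held no clobetasol peak, against 20.5% on the other autosomes. No induced peak was in 31.7%, 39.4% and 28.6% of them, against 19.1%. Single autosomes came close or went higher: chromosome 9 had 32.4% of windows without a clobetasol and 33.1% without an induced peak, and chromosome 21 had 28.1% and 36.8%. The length from first to last peak on chromosome 21 was 32.5 Mb in the clobetasol list and 38.3 Mb in the induced list. Windows with at least 5 peaks made up 19.1% of windows on the 3 chromosomes in the clobetasol list and 25.1% in the induced list, against 36.5% and 43.7%. Stretches over 2 Mb without a clobetasol peak took up 38.3% of chromosome 4, 32.4% of chromosome 13 and 25.1% of chromosome 18, against 21.8% of the other autosomes. Those without an induced peak took up 36.9%, 31.7% and 32.3%, against 20.0%. These are shares of the whole length, not of that from first to last peak. For chromosome 13 the whole length counts the short arm, which held no peak and adds to no stretch, so its shares are low for that reason. Here too chromosome 9 was as bare, at 35.7% and 34.6%. Part of its bare length, and of its empty windows, was a single stretch. That stretch was 24.4 Mb long in the clobetasol list and 20.4 Mb in the induced list, and whether it holds an assembly gap was not examined. The clobetasol value of chromosome 18 was below those of chromosomes 3, 5, 7, 9, 11 and 16. At a −log10 q of at least 10 the clobetasol value of chromosome 18 became 43.2%, that of chromosome 4 became 46.6% and that of chromosome 13 became 34.5%. Values of the other autosomes at that bound were not computed.

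Chromosome 13 had 3 stretches over 7 Mb in each list. No induced peak lay at chr13:60971876-73301680, over 12.3 Mb, and the clobetasol list had 1 peak near its far end, of fold 2.91 on 72 fragments, which left 11.4 Mb bare in both lists. The stretch at chr13:53566219-60971462, of 7.41 Mb, lies before it and was empty in both lists. A single site, at chr13:60971463-60971875, separates them. It was listed in both, with 74 fragments in the clobetasol pool and 89 in the induced pool, and folds of 2.46 and 3.03. The third stretch, chr13:80915575-89090063, ran for 8.17 Mb in the induced list and held 2 clobetasol peaks, the larger of 55 fragments. In the clobetasol list the third was another, chr13:84523887-92000463, which ran for 7.48 Mb and held 2 induced peaks. Where these stretches meet, 4.57 Mb was bare in both lists.

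On chromosome 4 the longest stretch, chr4:27219411-37687538, ran for 10.5 Mb in the induced list. The clobetasol list was bare over 10.4 Mb of it, with 1 peak of 70 fragments near its far end. The stretch at chr4:58511888-63965545 (5.45 Mb) and that at chr4:63965782-68265560 (4.30 Mb) were empty in both lists and are parted by 1 site, which is described below because it went against the general direction. The stretch at chr4:42659220-47847848 (5.19 Mb) held 1 clobetasol peak of 52 fragments and fold 5.32. Another, at chr4:178363757-183065450 (4.70 Mb), held 1 clobetasol peak of 36 fragments. In the clobetasol list, chr4:41739859-47527517 (5.79 Mb) came next after the longest and held 2 induced peaks.

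Chromosome 18 had shorter gaps. Its longest, chr18:13824350-18511104 (4.69 Mb), holds the centromere, and neither list had a peak in it. The next, chr18:61638045-65183815 (3.55 Mb), does not hold the centromere and was also empty in both lists. The stretch at chr18:34974281-38425000 (3.45 Mb) held 2 clobetasol peaks and that at chr18:48724861-51750741 (3.03 Mb) held 1. With the peaks of both lists combined, stretches over 2 Mb took up 32.0% of chromosome 4, 29.9% of chromosome 13 and 22.6% of chromosome 18. Whole lengths were used here too, with the short arm of chromosome 13.

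**Figure D3:**
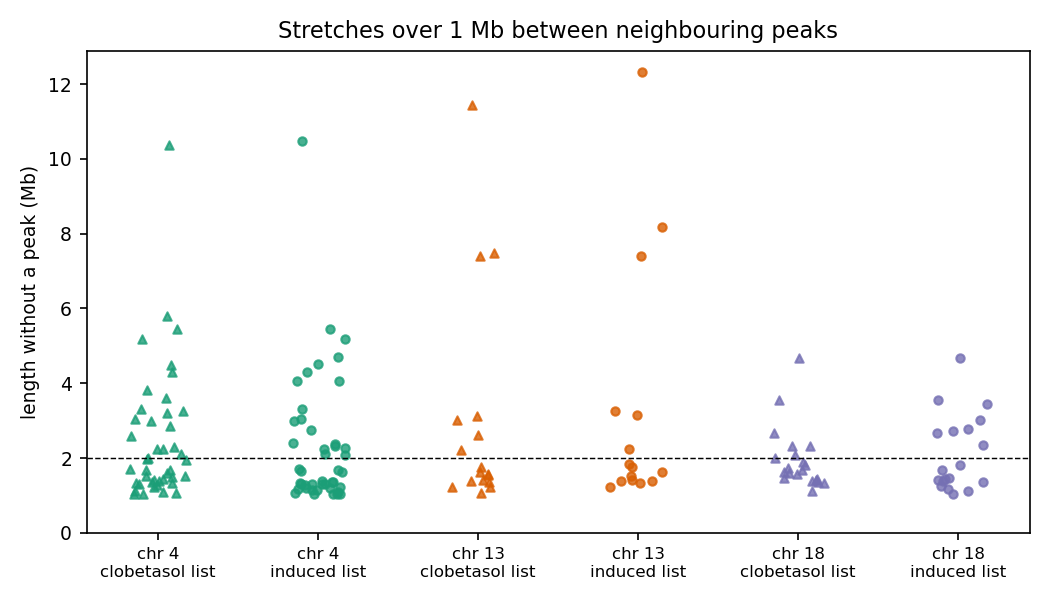
Length in Mb (vertical axis) of every stretch over 1 Mb between neighbouring peaks, 1 point per stretch, by chromosome and list (clobetasol list triangles, induced list circles; sideways spread within a column has no meaning, and the dashed line marks 2 Mb). Chromosome 13 has 3 stretches over 7 Mb in each list, chromosome 4 has 1 over 10 Mb in each, and chromosome 18 has none over 5 Mb.

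Induced peaks were found again in the clobetasol list about as often as elsewhere. Of the induced peaks on chromosome 4, 370 of 584 (63.4%, Wilson interval 59.4 to 67.2) overlapped a clobetasol peak by at least 1 bp. On chromosome 13 it was 204 of 305 (66.9%, 61.4 to 71.9), and on chromosome 18 it was 159 of 264 (60.2%, 54.2 to 65.9). The share over the whole induced list was 64%, inside all 3 intervals. These intervals cover counting error only. In the other direction, 383 of 458 clobetasol peaks on chromosome 4 (83.6%), 208 of 247 on chromosome 13 (84.2%) and 164 of 202 on chromosome 18 (81.2%) overlapped an induced peak, against 86.4% of the whole clobetasol list. The 3 chromosomes together stood at 83.2% (80.7 to 85.5), against 86.9% (86.2 to 87.5) on the other autosomes, a gap with no replicate spread to set it against.

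The share differed more between strong and weak peaks than between chromosomes. Of induced peaks with a −log10 q of 5 to 10, 30.3% overlapped a clobetasol peak, against 28.1% on the other autosomes. The share was 62.3%, against 63.3%, from 10 to 20, and 94.1%, against 94.6%, at 20 or more. Induced peaks without a clobetasol peak had a median of 44 fragments and a median fold of 3.31, and those with one had 87 fragments and 3.88. Chromosome 18 moved when both lists were held to a −log10 q of at least 10. It then kept 95 of 182 induced peaks (52.2%, 45.0 to 59.3), the lowest share of the 22 autosomes, while chromosome 4 kept 63.0% and chromosome 13 kept 71.4%, against 63.8% of all induced peaks at that bound.

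**Figure D4:**
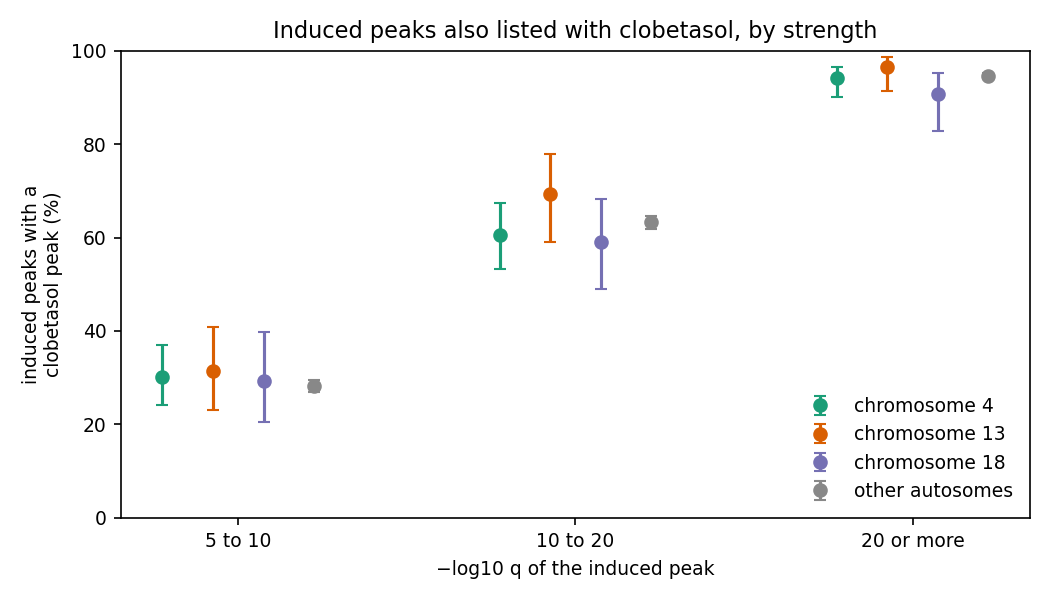
Share of induced peaks that overlap a clobetasol peak (vertical axis, %) by the −log10 q of the induced peak (horizontal axis), for chromosomes 4, 13 and 18 and the other autosomes. Points are shares and bars 95% Wilson intervals, which cover counting error only; in each class the intervals of the 3 chromosomes include the point of the other autosomes.

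Among the 422 strong induced peaks, with a −log10 q of 20 or more, 25 had no clobetasol peak: 13 on chromosome 4, 4 on chromosome 13 and 8 on chromosome 18. The highest q among those on chromosome 4 was at chr4:88744185-88744506, which had 104 fragments in the induced pool and 30 in the proliferating pool, with a fold of 5.98 and the nearest clobetasol summit 184 kb away. On chromosome 13 it was chr13:99229346-99229784, with 115 induced and 41 proliferating fragments and a fold of 4.91, followed by chr13:99738326-99738684, with 66 and 18 fragments and a fold of 6.13. On chromosome 18 it was chr18:18518121-18518520, within the pericentromeric run, whose 1163 induced fragments lay 1.62-fold over the control. The next there, chr18:75795902-75796133, had 350 induced fragments, was also repeat-like, and stood alone inside a stretch of 2.01 Mb without a clobetasol peak. Outside repeat-like sites the highest q was at chr18:57168005-57168556, with 58 induced fragments and a fold of 6.35, and a clobetasol summit lay 1.47 kb from it. That site was added after its values were seen.

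Clobetasol peaks without an induced peak numbered 152 on the 3 chromosomes, with a median of 48 fragments, and the 755 with an induced peak had a median of 82. At the highest q on chromosome 13, chr13:51560924-51561155 had 349 clobetasol fragments and a fold of 2.52 on a control level 17.4 times the lowest. On chromosome 4, chr4:119903050-119903357 had 157 fragments and a fold of 3.12. The site at chr4:115543566-115543802, with 215 fragments and a fold of 2.36, lies inside a stretch of 4.52 Mb without an induced peak. On chromosome 18, chr18:9073700-9073989 had 137 fragments and a fold of 3.05, and chr18:3579719-3580045 had 58 fragments and a fold of 5.03. Except for the last, these 5 sites were repeat-like.

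At sites in both lists, EGR1 pileups were lower with clobetasol by about the same amount as over the genome. Fragments of the clobetasol pool were divided by its depth relative to the induced pool, 1.21, before the ratio to the induced pool was taken. The median ratio was 0.795 over 370 sites of chromosome 4, 0.805 over 204 of chromosome 13 and 0.790 over 159 of chromosome 18, against 0.797 on the other autosomes. The ratio was below 1 at 629 of 733 sites. By the two-sided exact binomial test, adjusted by the Benjamini-Hochberg method over all 10429 shared sites, 169 of the 733 were lower with clobetasol (23.1%) and 2 were higher (0.273%). The same test called 22.6% of all shared sites lower and 0.384% higher, so the shares on these chromosomes were close to the background. The test compares 2 pools, and its error is that of counting fragments.

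**Figure D5:**
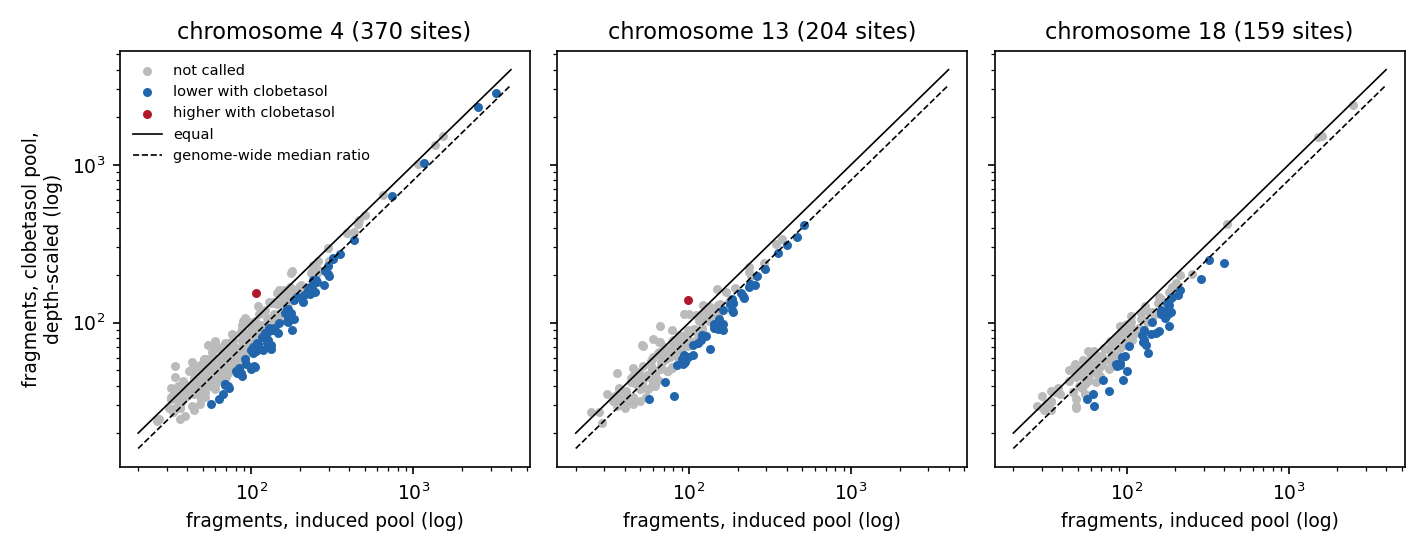
Summit fragments of the clobetasol pool after depth scaling (vertical axis, log) against those of the induced pool (horizontal axis, log) at every shared site of chromosomes 4, 13 and 18. Blue sites were lower and red sites higher with clobetasol by the adjusted exact binomial test; most points follow the dashed line of the genome-wide median ratio, below the solid line of equality, and the sites above 1000 fragments, all repeat-like, lie closer to equality.

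Because the median of all shared sites was 0.799, a shift of −0.32 on the log2 scale, sites were also tested against that median. Then 7 of the 733 sites were lower than the general change (0.955%, against 0.508% of all shared sites) and 17 were higher (2.32%, against 2.28%). Of the 17 higher, 15 were repeat-like in at least 1 list, as were 193 of the 238 higher among all shared sites and 122 of 165 on the other autosomes. Tested against equality, 2 of those 17 were higher with clobetasol, 2 were lower and 13 were not called, and all 7 of the lower sites were lower. Repeat-like sites with over 1000 induced fragments, of which there were 6 on chromosome 4 and 3 on chromosome 18, had ratios of 0.880 to 0.996.

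The 7 sites that were lower than the median change were also lower than equality, the easier mark on the same counts, and 5 of them were not repeat-like. On chromosome 13, chr13:24040353-24040813 had 42 fragments in the clobetasol pool (34.6 after scaling) and 81 in the induced pool, with folds of 3.80 and 8.72. Its ratio of 0.427 (exact interval 0.287 to 0.627) was 0.534 of the median change, with an adjusted p of 0.0320 by the exact binomial test against that change. Also on chromosome 13, chr13:110438874-110439368 had 83 fragments in the clobetasol pool (68.3 after scaling) and 134 in the induced pool, a ratio of 0.510. There the summits lay 48 bp apart. On chromosome 4 it was 1 site, chr4:79697184-79697703, with 110 fragments (90.5 after scaling) and 177, a ratio of 0.512.

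Chromosome 18 held the other 4. At chr18:19803633-19803995 the clobetasol pool had 78 fragments (64.2 after scaling) and the induced pool 136, against 24 in the proliferating pool, so the fold was 4.45 with clobetasol and 9.62 in induced cells, and the ratio was 0.472 (0.353 to 0.628). At chr18:47807673-47808084 the ratio was 0.459, on 53 clobetasol and 95 induced fragments. The 2 repeat-like ones were chr18:25756878-25758519, with a ratio of 0.520, and chr18:12307880-12308333, with a ratio of 0.592. The last is the induced peak of highest q on the chromosome, with 289 clobetasol fragments (238 after scaling) and 402 induced fragments, and its adjusted p by the exact binomial test was 7.45e-09 against equality and 0.00604 against the median change. Ratios below 0.5 were found at no shared site of chromosome 4, at 1 of chromosome 13 and at 5 of chromosome 18, and at 48 of 9365 on the other autosomes.

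The site of highest q on the 3 chromosomes followed the general change. It was repeat-like, with a control level 10.5 times the lowest of the induced list. At chr13:80915006-80915574, the clobetasol pool had 506 fragments (416 after scaling), the induced pool 513, and the proliferating pool 123, or 67.8 on the induced scale. The folds were 6.44 with clobetasol and 7.47 in induced cells, and the ratio of 0.812 (0.717 to 0.920) was lower than equality (adjusted p = 0.00938, exact binomial test) but just above the median change. The site stands at the edge of the 8.17 Mb stretch without an induced peak. The induced peak of highest q on chromosome 4, chr4:39640450-39641445, had 407 clobetasol fragments (335 after scaling), 428 induced fragments and 155 proliferating fragments, with folds of 3.72 and 4.96 and a ratio of 0.783. This peak was also repeat-like, at 13.2 times the lowest control level of the induced list. The largest fold outside repeat-like sites on chromosome 4 was at chr4:185395588-185396030, at 5.32 with clobetasol and 9.37 in induced cells, on 129 (106 after scaling) and 184 fragments. Its ratio was 0.577 (0.457 to 0.727). On chromosome 13 the largest was at chr13:31362203-31362815, with folds of 7.26 and 9.69 on 123 (101 after scaling) and 137 fragments. Its ratio of 0.739 (0.5745 to 0.9497) did not pass the adjusted test.

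Few sites were higher with clobetasol. The site at chr4:63965546-63965781, which stands alone between the stretches of 5.45 and 4.30 Mb, had 186 clobetasol fragments (153 after scaling) and 107 induced fragments, with folds of 4.89 and 2.16. Its ratio was 1.43 (1.12 to 1.83; adjusted p = 0.0216, exact binomial test). On chromosome 13, chr13:26874354-26874595 had 169 clobetasol fragments (139 after scaling) and 98 induced fragments, with folds of 4.06 and 2.86 and a ratio of 1.42 (adjusted p = 0.0312, exact binomial test). Both were repeat-like in the induced list, with control levels 7.57 and 5.19 times its lowest. In the clobetasol list the levels were 4.70 and 5.17 times the lowest, so the site on chromosome 4 was not repeat-like there. Its summits in the 2 lists lay 75 bp apart, so its 2 fragment counts are from different positions. The highest ratio outside repeat-like sites was 1.57 (1.02 to 2.46) at chr4:119763220-119763459, on 65 clobetasol (53.5 after scaling) and 34 induced fragments. It passed the test against the median change (adjusted p = 0.0443, exact binomial test) and did not pass that against equality (0.102). On chromosome 18 no site was called higher than equality by the test. There the highest ratio among sites with at least 50 fragments in a pool was 1.149 (0.781 to 1.70), at chr18:43237983-43238301.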

How the data were processed

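Per the submitters' processing notes, MACS2 2.1.1.20160309, BWA, SAMtools 1.3.1, cutadapt 1.15, bcl2fastq and FastQC 0.11.5 were used, with build hg19. No settings of the peak caller are stated there. Per the peak names in the deposited lists, replicates 1, 2 and 3 of a group were pooled. For proliferating cells, the names given to libraries 2 and 3 both read as sample 2, so 3 distinct control samples are not certain. The deposited fold is a ratio of treated pileup to control level. Significance was deposited as −log10 p-values and −log10 q-values at the summit, and the authors' score was 10 times the −log10 q, cut to a whole number, in every one of the 12340 clobetasol and 16285 induced peaks. The lowest −log10 q was 5.00 in both.

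Treated pileup and control level were solved from fold (pseudocount 1) and −log10 p. A tolerance of 0.05 fragments gave whole pileups for 99.4% of clobetasol and 99.5% of induced peaks on these chromosomes. Control levels fell on multiples of 0.670 (clobetasol) and 0.552 (induced), and the ratio of these factors gave the depth ratio. A shared site was paired by nearest summit. SciPy 1.17.1, pandas 2.3.3, numpy 2.4.6 and matplotlib 3.10.9 in Python 3.11.15 were used, with adjusted p under 0.05 as the threshold and 95% intervals. The test was checked on simulated data.

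Sites named on each chromosome were the 5 induced and 5 clobetasol peaks of highest q, the 5 induced peaks of largest fold that were not repeat-like, the 3 of highest q in 1 list only, the 3 of lowest and of highest ratio with at least 50 fragments in 1 pool, the 3 largest runs and densest windows and the 4 longest stretches, of which a part is printed. Sites called against the median change were added after their values were seen. The members, rules and lists were chosen with earlier results of these data known. Nearest genes, gene lists, motifs and sequences are not given, since neither an hg19 genome nor an hg19 annotation was used. Chromosome lengths and centromeres of hg19 were taken as known, and no peak passed an end or lay in a centromere gap.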

Additional observations from a re-analysis of the deposited data

How the results depend on the processing

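Of 324 recomputed values, 230 kept their direction and side of the threshold or moved little. The share of induced peaks with a clobetasol peak was 63.6%, and became 44.3% with folds of at least 3 in both lists and 57.1% without repeat-like peaks. The share of clobetasol peaks with an induced peak was 83.2%, and became 78.2% with summits within 100 bp, 78.7% at folds of at least 3 and 78.0% without repeat-like peaks. Shares of the whole lists at these settings are not given, so whether these falls differ from those of the whole lists is not known. With the median of all shared sites set to 1, the median ratio became 0.999, that of chromosome 13 became 1.01, the site at chr13:80915006-80915574 became 1.02 (both turned from below to above 1), and lower and higher sites numbered 7 and 17. By construction this removes the general decrease. Of 41 named shared sites, 20 were then no longer called and 3 became called. Without repeat-like sites 83 lower and 0 higher sites were left, fewer sites being tested. The numbers tested and the shares called over all shared sites are not given for that setting or the next. A −log10 q of at least 10 left 1 higher site. That bound left 589 clobetasol peaks, 18 clobetasol and 29 induced runs, and a longest clobetasol stretch of 18.8 Mb. Runs numbered 50 (clobetasol) and 73 (induced), 23 and 43 at 20 kb, and 83 and 120 at 100 kb. Stretches over 1 Mb without a clobetasol peak took up 52.1% of the length. The cause of these moves was otherwise not tested.

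No paired analysis was possible because each list holds 1 pool of 3 libraries, and no library could be left out. Sites without a peak are only known to lack a listed one. Induced peaks without a clobetasol peak had a median of 44 fragments, and no clobetasol value is held for them, so whether they differed between the pools was not measured.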
